A study of Mus musculus with 10 samples.

Results

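The NADH dehydrogenase, succinate dehydrogenase and cytochrome bc1 complexes (complexes I, II and III of the mitochondrial respiratory chain) were followed in the hippocampus of old mice on 2 diets. Members were all probe sets that carry exactly 1 gene symbol beginning with Nduf, Sdh or Uqcr, or the symbol Cyc1. This gave 45 of the 8251 genes that the array names by 1 symbol, measured by 57 of the 12422 probe sets that are not array controls: 42 probe sets for complex I, 6 for complex II and 9 for complex III. The symbols also take in assembly factors, which accounted for 6 of the 57 probe sets and are not part of the finished enzymes. The mice were male C57BL/6 animals aged 30 months, 5 fed a control diet and 5 under long-term calorie restriction, with 1 mouse per Affymetrix array. The labels give neither the degree of restriction nor the age at which it began.

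Complexes I and II take electrons from NADH and from succinate and pass them to ubiquinone, and complex III passes them on from ubiquinol to cytochrome c. Complexes I and III pump or release protons across the inner mitochondrial membrane as they do so, and the ATP synthase uses that gradient. Each of complexes I and III holds a catalytic core, partly encoded in mitochondrial DNA, surrounded by many small nuclear-encoded accessory subunits, while complex II also belongs to the citric acid cycle and is encoded wholly in the nucleus. Neurons draw most of their ATP from this chain.

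The 4 sequences printed here are promoters of members, shown because nuclear genes for respiratory subunits are known for shared binding motifs of NRF1 and of ETS factors such as GABP. Each is the 200 bases before the annotated transcription start, from RefSeq on GRCm38.p6, written 5′ to 3′ along the gene's strand. Only NRF1 and ETS matches are in capitals. Matches of the SP1 core GGGCGG, which Sdhb holds on the opposite strand, stay in lower case. Ndufa6 (chr15:82354292-82354491, minus strand) and Sdhb (chr4:140961071-140961270, plus strand) hold the NRF1 core GCATGCGC, starting at positions -83 and -54 from the start. Ndufb7 (chr8:83566558-83566757, plus strand) and Uqcrh (chr4:116075071-116075270, minus strand) hold the ETS core CCGGAAG, starting at -20 and, on the opposite strand, at -10. Transcripts of Ndufa6, Ndufb7 and Uqcrh were higher in calorie restricted mice and that of Sdhb did not pass the test.
Ndufa6: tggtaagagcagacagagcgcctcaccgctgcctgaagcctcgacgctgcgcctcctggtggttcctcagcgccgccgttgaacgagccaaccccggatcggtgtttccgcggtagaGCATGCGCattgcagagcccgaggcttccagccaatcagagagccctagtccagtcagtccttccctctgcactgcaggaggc
Ndufb7: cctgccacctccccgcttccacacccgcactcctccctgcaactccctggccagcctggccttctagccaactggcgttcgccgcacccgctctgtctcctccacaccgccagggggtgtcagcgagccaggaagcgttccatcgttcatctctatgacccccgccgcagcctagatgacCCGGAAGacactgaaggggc
Uqcrh: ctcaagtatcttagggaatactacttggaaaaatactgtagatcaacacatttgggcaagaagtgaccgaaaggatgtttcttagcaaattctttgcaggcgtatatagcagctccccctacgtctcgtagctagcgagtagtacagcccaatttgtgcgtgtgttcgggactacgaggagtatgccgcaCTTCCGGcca
Sdhb: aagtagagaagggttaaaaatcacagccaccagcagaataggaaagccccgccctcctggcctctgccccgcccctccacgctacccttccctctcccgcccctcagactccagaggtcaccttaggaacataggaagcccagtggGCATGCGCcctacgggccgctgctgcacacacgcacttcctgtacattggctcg

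Promoter windows running from 250 bases before to 50 bases after the start were in the table for 37 of the 45 member genes, among them 7 of the 9 genes that passed. Uqcrc2 and Uqcrq had no window there. Both strands were searched, and no pair of these motifs contains the other. The NRF1 core lay in 6 of the 37 genes (16.2%), against 3.05% of all 27025 genes in the table. The ETS core lay in 10 (27.0%), against 9.93%. Among the other motifs searched, the YY1 core AAGATGG lay in 5 (13.5% against 7.28%), the SP1 core GGGCGG in 20 (54.1% against 38.2%), the CRE TGACGTCA in 2 (5.41% against 2.03%) and the ERR core TCAAGGTCA in 1 (2.70% against 0.466%). The NRF1 core was found in 1 of the 7 genes that passed and 5 of the 27 tested genes that did not, and the ETS core in 2 of 7 and 8 of 27. These letter matches describe the windows and are not measured binding sites.

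Signals are the deposited linear intensities on the log2 scale, and a change is the calorie restricted mean minus the control mean. Of the 57 member probe sets, 46 were bright enough to be tested, and they cover 42 genes. At a limma adjusted p under 0.05 over all 7453 tested probe sets, 9 members were higher in calorie restricted mice, 0 were lower and 37 did not pass. Of all tested probe sets 4.11% were higher and 7.74% lower (11.8% in either direction). An unadjusted limma p under 0.05 was found in 17 of the 46 members, 8 of them among the 37 that did not pass, against 31.6% of all tested. The median change was 0.33 over the members and -0.15 over all tested probe sets. It was 0.16 over the 34 tested members with a plain identifier, 6 of them higher. Over the 12 whose identifier carries a suffix, which can mark probes that match several transcripts, it was 0.58, with 3 higher. That difference was not tested. A change above 0 was seen in 33 of the 46 members, against 39.4% of all tested, and a change above the median of all tested in 37 of 46, against 50%. Members were bright: 34 of the 46 lay among the brightest 1491 tested probe sets, where 11.1% of all probe sets were higher, 2.15% were lower and the median change was 0.13. Of those 34 members 8 were higher, and their median change was 0.34. The hippocampus is a mixture of cells, so more RNA per cell and more cells of a type cannot be told apart.

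**Figure D1:**
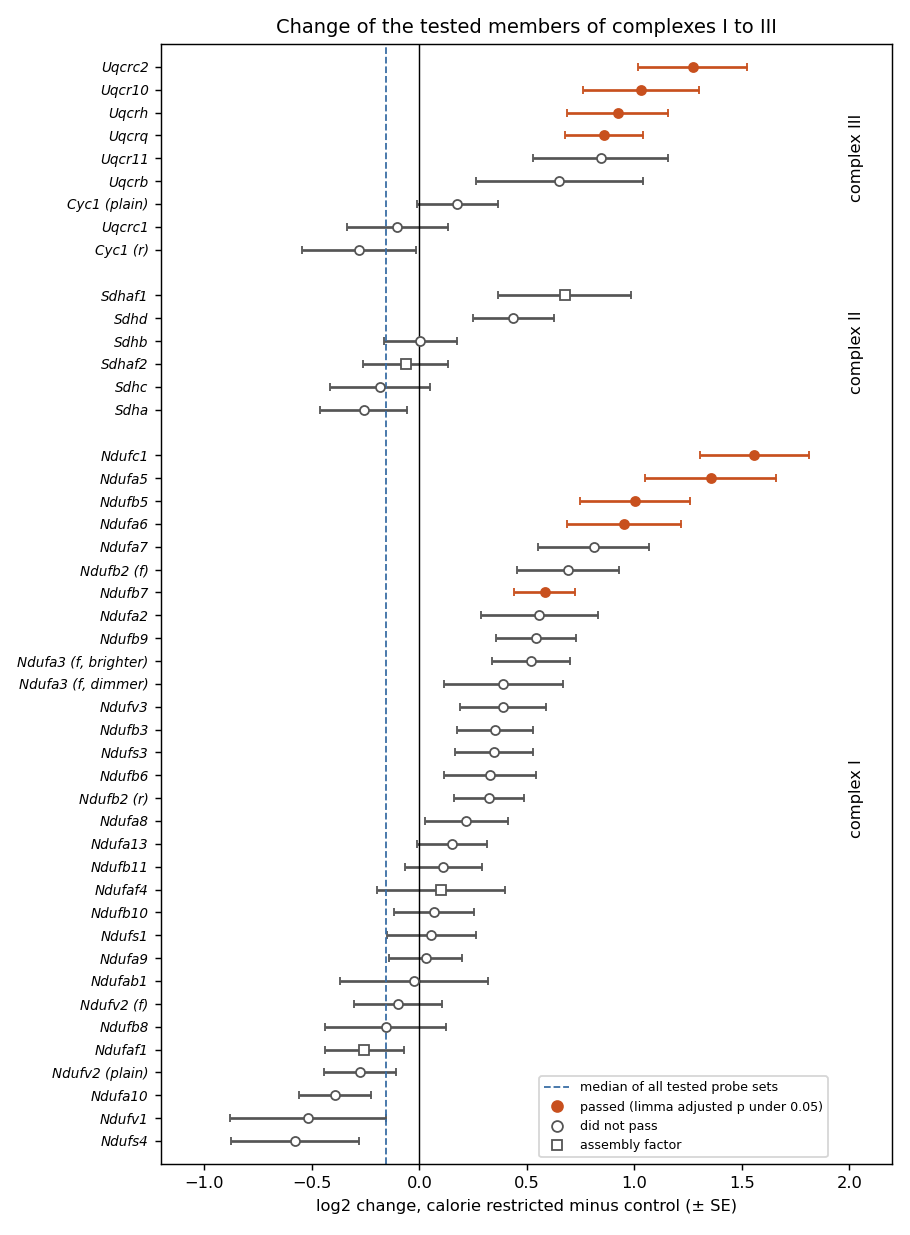
Log2 change (calorie restricted minus control) of each of the 46 tested members with its SE, ordered within complexes I, II and III; filled points passed at a limma adjusted p under 0.05, open points did not and squares are assembly factors. The 9 filled points all lie to the right, 5 in complex I and 4 in complex III, and none is in complex II.

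Calls were spread over complexes I and III. In complex I 5 of 31 tested probe sets were higher, with a median change of 0.32. That median was 0.13 under quantile normalization, 0.19 without calorie restricted replicates 3 and 5 and 0.17 with RNA quality as a covariate, with 3, 4 and 2 higher. In complex III 4 of 9 were higher, with a median of 0.84. In the same settings it was 0.64, 0.67 and 0.45, with 1, 3 and 0 higher. In complex II 0 of 6 were, with a median of -0.03. Its sign turned in the same settings, to 0.03, 0.09 and 0.05, with 0 higher each time. It also turned when each array was centred on its median, to 0.19. Over all 7453 tested probe sets 306 were higher as deposited, 319 under quantile normalization and 155 with RNA quality as a covariate. The differences between complexes were not tested.

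Several of these values moved with measures of the arrays. The 3′ minus 5′ log2 difference of the Gapdh and Actb control probes, which grows as RNA is shortened, averaged 0.16 ± 0.24 in control mice and 2.88 ± 2.57 under restriction (SD, 5 mice per diet), with no overlap (exact two-sided permutation test, p = 0.00794, the smallest that 5 against 5 allows). It stood at 5.20 and 6.11 in calorie restricted replicates 3 and 5 and at 0.78 to 1.52 in the other calorie restricted mice. The spike-in signal was also higher in that diet, at 13.05 ± 0.47 against 11.12 ± 0.56, with the same p. With RNA quality as a covariate 2 of the 9 members still passed (Ndufb7 and Ndufc1), and with the spike-in signal added as a further covariate 0 members and 0 of all 7453 probe sets passed in limma, while 4 members and 907 of all had an unadjusted limma p under 0.05. Both measures run with the diet, so their part in these results and that of the diet cannot be told apart in those fits. Without calorie restricted replicates 3 and 5, 7 members were higher: Ndufa5, Ndufb5, Ndufb7, Ndufc1, Uqcrc2 and Uqcrq from the 9, and Uqcr11. The count over all tested probe sets in that fit is not given here. Under quantile normalization 4 members were higher, namely Ndufa5, Ndufa6, Ndufc1 and Uqcrc2.

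Among the subunits of complex I that passed, Ndufc1, a small accessory subunit of the membrane arm, had the largest change. Control replicates 1 to 5 had signals of 10.87, 11.14, 9.98, 10.16 and 10.79, while those of calorie restricted replicates 1 to 5 were 11.57, 12.13, 12.54, 12.11 and 12.36. Every calorie restricted mouse was above every control mouse, and replicate 1 was the lowest of that diet. The change was 1.56 ± 0.25 (SE), a 2.94-fold higher signal, with a limma adjusted p of 0.00723. Without calorie restricted replicates 3 and 5 it was 1.35.

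Ndufa5, an accessory subunit of the arm that reaches into the matrix, had signals of 12.19, 11.80, 11.78, 11.44 and 12.24 in control mice. In calorie restricted mice they were 12.64, 12.67, 13.51, 13.07 and 14.33. The diets did not overlap, and calorie restricted replicates 3 and 5 were the highest. The change was 1.35 ± 0.31 (2.56-fold, limma adjusted p = 0.0208), and 0.90 without those 2 mice.

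Ndufa6, an accessory subunit of the LYR family in the same arm, gave 9.47, 8.68, 8.69, 8.89 and 9.72 in control and 9.73, 9.75, 10.31, 9.77 and 10.64 in calorie restricted mice. The gap between the diets was small, 9.72 in control replicate 5 against 9.73 in calorie restricted replicate 1. The change was 0.95 ± 0.26 (1.93-fold, limma adjusted p = 0.0389). Without calorie restricted replicates 3 and 5 it was 0.66 with an adjusted p of 0.106, so the call was lost.

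Ndufb5, an accessory subunit of the membrane arm, gave 13.15, 12.79, 12.73, 12.79 and 13.05 in control and 13.38, 13.46, 14.12, 13.74 and 14.83 in calorie restricted mice. Again the diets did not overlap and calorie restricted replicate 5 was highest. The change was 1.0 ± 0.26 (2.0-fold, limma adjusted p = 0.0302), and 0.62 without replicates 3 and 5 of that diet.

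Ndufb7, an accessory subunit on the intermembrane side of the membrane arm, was the tightest of the members that passed. Control mice gave 12.07, 11.89, 11.88, 11.95 and 11.99, and calorie restricted mice 12.44, 12.64, 12.62, 12.72 and 12.27. Here replicate 5 was the lowest calorie restricted mouse, and it still lay above all control mice. The change was 0.58 ± 0.14 (1.5-fold, limma adjusted p = 0.0259). Leaving out calorie restricted replicates 3 and 5 gave 0.65, but quantile normalization gave 0.27 with an adjusted p of 0.241, and the call held in 4 of the 10 fits that left out 1 array. A second probe set of Ndufb7 was too dim to be tested, with means of 4.10 in control and 4.15 in calorie restricted mice.

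In complex III, Uqcrc2, core protein 2 of the matrix side, had the largest change. Its signals were 11.49, 11.05, 11.36, 10.92 and 11.12 in control and 11.95, 12.04, 12.74, 12.25 and 13.32 in calorie restricted mice. The diets were separate, and calorie restricted replicate 5 stood highest. The change was 1.27 ± 0.25 (2.41-fold, limma adjusted p = 0.0145). Leaving out calorie restricted replicates 3 and 5 gave 0.89. Its probe set identifier carries a suffix for probes that can match several transcripts, as do those of Ndufa5 and Ndufb5.

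Uqcrq, a small subunit near the ubiquinone-binding part, gave 12.88, 12.50, 12.22, 12.25 and 12.72 in control and 13.12, 13.24, 13.69, 13.31 and 13.51 in calorie restricted mice. No control mouse reached the lowest calorie restricted mouse. The change was 0.86 ± 0.18 (1.82-fold, limma adjusted p = 0.0168). Leaving out calorie restricted replicates 3 and 5 gave 0.71. Under quantile normalization it was 0.45 with an adjusted p of 0.103, so the call was lost.

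Uqcrh, the acidic hinge protein at the cytochrome c1 side, gave 11.99, 11.31, 11.08, 11.06 and 11.85 in control and 12.20, 12.04, 12.81, 12.15 and 12.70 in calorie restricted mice. Control replicate 1, at 11.99, lay just under calorie restricted replicate 2, at 12.04. The change was 0.92 ± 0.24 (1.90-fold, limma adjusted p = 0.0300). Leaving out calorie restricted replicates 3 and 5 gave 0.68, with an adjusted p of 0.0721.

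Uqcr10, the small subunit beside cytochrome c1, gave 12.10, 11.34, 11.35, 11.42 and 12.07 in control and 12.15, 12.23, 13.10, 12.59 and 13.36 in calorie restricted mice. Calorie restricted replicates 1 and 2 lay close to control replicates 1 and 5, and replicates 3 and 5 stood highest. The change was 1.03 ± 0.27 (2.04-fold, limma adjusted p = 0.0323). When calorie restricted replicates 3 and 5 were left out it was 0.67, with an adjusted p of 0.0713.

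**Figure D2:**
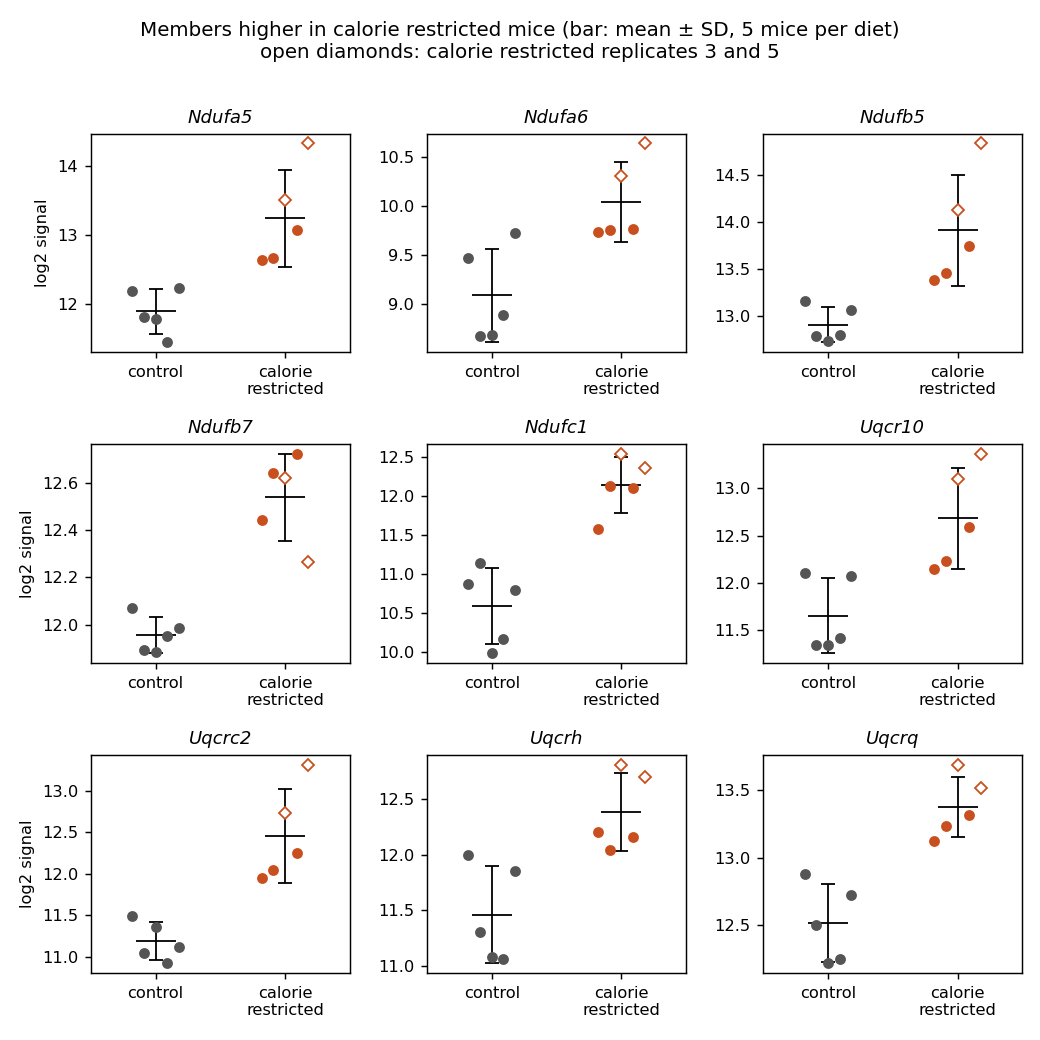
Log2 signal of the 9 members that were higher in calorie restricted mice, 1 point per mouse with the mean and SD of 5 mice per diet; open diamonds are calorie restricted replicates 3 and 5. In each panel every calorie restricted mouse lies above every control mouse, by the least in Ndufa6 (9.73 against 9.72).

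Of the 46 tested members 9 had diets that did not overlap in the higher direction, against 4.96% of all tested probe sets, and these were the 9 that passed. Calorie restricted replicate 5 was the highest of its diet in 5 of the 9, replicate 3 in 3 and replicate 4 in 1. Replicate 1, with a 3′ minus 5′ difference of 0.79, was the lowest in 7. Among control mice, replicate 1 was highest in 6 of the 9. Taken mouse by mouse, the median deviation of the 9 from their control means reached 0.65, 0.69, 1.35, 0.84 and 1.71 under restriction (replicates 1 to 5), and 0.30, -0.12, -0.30, -0.26 and 0.21 among control mice in the same order. Over all 46 tested members it was 0.21, 0.22, 0.52, 0.23 and 0.18 in calorie restricted mice. Control mice gave 0.24, -0.09, -0.12, -0.14 and 0.16, so the diets overlapped there. Control replicate 1 lay above calorie restricted replicates 1, 2, 4 and 5. Over all tested probe sets the median deviation was -0.08, -0.07, -0.10, -0.09 and -0.25 in calorie restricted mice. That lower level of the whole array is not taken out of the members' 0.18 in replicate 5. That mouse had the highest signal of its diet in 13 of the 46 members and the lowest in 18.

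**Figure D3:**
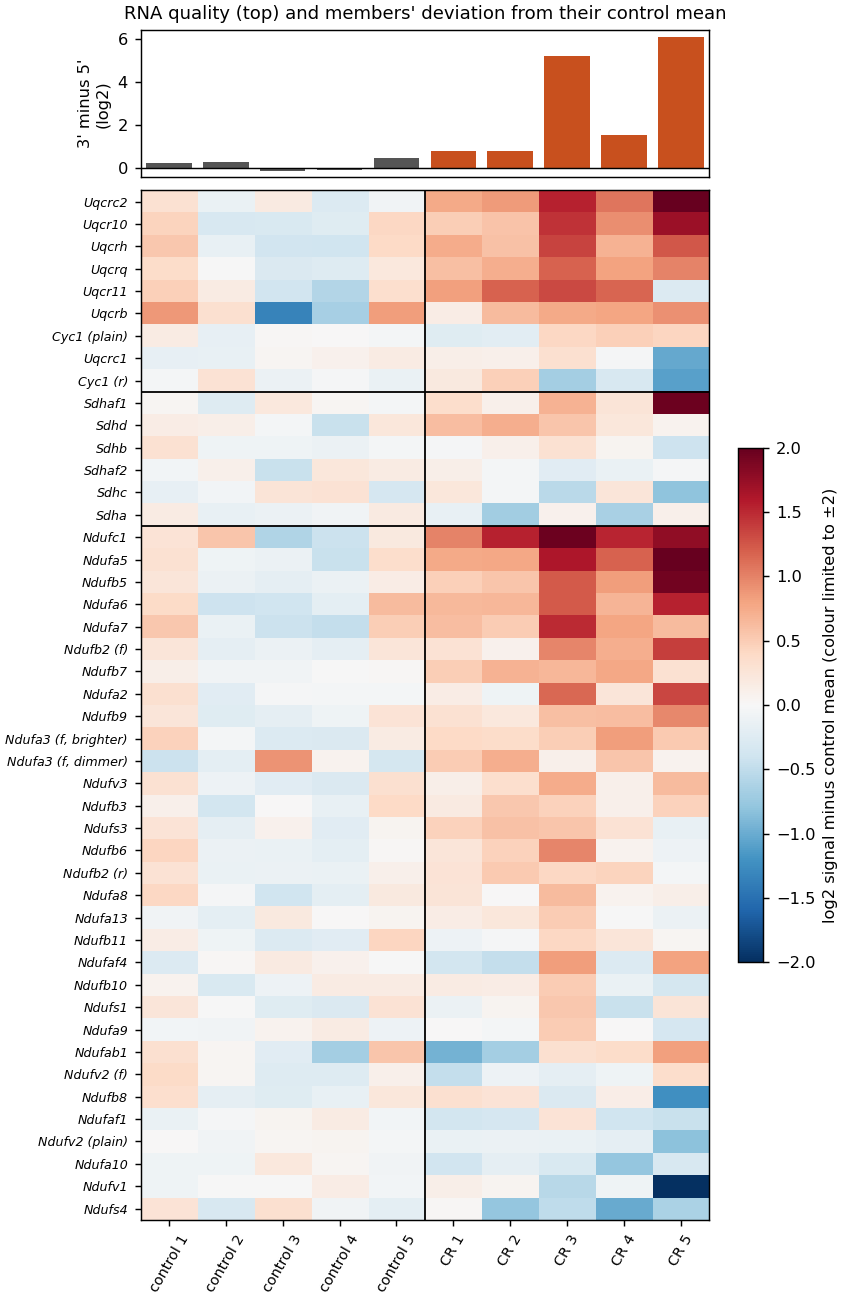
The bars at the top give the 3′ minus 5′ log2 difference of the Gapdh and Actb control probes on each of the 10 arrays, and the colours below give each tested member's log2 signal minus its control mean, with members grouped by complex. Calorie restricted replicates 3 and 5 have the tallest bars (5.20 and 6.11), and replicate 5 holds both the highest signal of its diet in 13 members and the lowest in 18.

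The number of members that passed changed when single arrays were left out. Counts over all tested probe sets in those fits are not given here, so this is not shown to be particular to the members. Leaving out control replicate 2, 3 or 4, or calorie restricted replicate 3, left 3 members higher each time: Ndufc1, Uqcrc2 and Uqcrq. Without calorie restricted replicate 4 there were 6, and without calorie restricted replicate 2 there were 12. These 3 genes passed in all 10 such fits, while Ndufa5, Ndufb5 and Uqcrh passed in 6, Uqcr10 in 5, Ndufb7 in 4 and Ndufa6 in 3. In the 10 fits the changes were 1.41 to 1.70 for Ndufc1, 1.06 to 1.40 for Uqcrc2 and 0.78 to 0.95 for Uqcrq. The highest limma adjusted p in those fits was 0.0244 for Ndufc1, 0.0410 for Uqcrc2 and 0.0489 for Uqcrq.

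No core subunit of complex I passed. The 5 tested probe sets of Ndufs1, Ndufs3, Ndufv1 and Ndufv2 gave 0 higher and 0 lower, with a median change of -0.10, which was -0.03 under quantile normalization and 0.12 with median-centred arrays. The other subunits of complex I gave 5 higher of 24, with 20 of 24 above 0 and a median of 0.37. The difference between these groups was not tested. Ndufs1, the large iron-sulfur subunit, averaged 10.79 ± 0.27 in control mice and 10.85 ± 0.37 under restriction (SD, n = 5 each) (change 0.05 ± 0.21 SE, limma adjusted p = 0.877). Ndufs3, a core subunit close to the quinone site, had 11.39 ± 0.21 and 11.74 ± 0.30 (change 0.35 ± 0.18, limma adjusted p = 0.206). The diets overlapped in both, though 4 of the 5 calorie restricted mice were above every control mouse for Ndufs3.

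Ndufv1, which binds NADH and the flavin, gave 12.69, 12.77, 12.76, 12.92 and 12.73 in control and 12.90, 12.83, 12.22, 12.70 and 10.64 in calorie restricted mice. The low mean of the restricted diet came from replicate 5 and, by less, replicate 3. The change was -0.52 ± 0.36 (limma adjusted p = 0.340), and 0.03 without those 2 mice. Ndufv2, an iron-sulfur subunit beside it, had one probe set at 11.62, 11.53, 11.65, 11.66 and 11.56 in control and 11.47, 11.49, 11.48, 11.42 and 10.78 in calorie restricted mice. All restricted mice lay below all control mice, but by little except in replicate 5, and the change of -0.28 ± 0.17 did not pass (limma adjusted p = 0.274). A second Ndufv2 probe set had overlapping diets (change -0.10 ± 0.20, limma adjusted p = 0.763). Its sign was positive with median-centred arrays (0.12) and under quantile normalization (0.11).

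Besides Ndufv2, Ndufa10, an accessory subunit of the membrane arm, had diets that did not overlap in the lower direction. That is 2 of 46 members, against 9.35% of all tested probe sets. Ndufa10 gave 9.40, 9.40, 9.68, 9.51 and 9.40 in control and 9.10, 9.30, 9.17, 8.71 and 9.16 in calorie restricted mice, a change of -0.39 ± 0.17 that did not pass (limma adjusted p = 0.131). Ndufs4, an accessory subunit needed for a stable matrix arm, had the lowest change of all tested members. Its signal was dim, 7.35 ± 0.29 in control and 6.77 ± 0.38 in calorie restricted mice, and its change of -0.58 ± 0.30 did not pass (limma adjusted p = 0.200).

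Among the accessory subunits of complex I, those named with the letter a gave 2 higher of 11 tested, with a median of 0.39, and those named with b gave 2 of 10, with a median of 0.34. Short of the threshold were Ndufa7 (0.81, limma adjusted p = 0.0593), Ndufb9 (0.54, 0.0732), one probe set of Ndufb2 (0.69, 0.0755) and one of Ndufa3 (0.52, 0.0766), chosen here because their adjusted p lay between 0.05 and 0.1. The second tested probe set of each of the latter genes had the same sign, with 0.32 for Ndufb2 and 0.39 for Ndufa3. Among the other members Ndufa2, Ndufv3, Ndufb3, Ndufb6 and Ndufa8 had changes of 0.22 to 0.56. Ndufa9, Ndufab1, Ndufb10, Ndufb11 and Ndufa13 lay between -0.02 and 0.15, and Ndufb8 at -0.16. The tested assembly factors Ndufaf1 (-0.26) and Ndufaf4 (0.10) did not pass either.

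No member of complex II passed. Sdha, the flavin subunit that binds succinate, averaged 9.68 ± 0.16 in control mice and 9.43 ± 0.39 under restriction (SD, n = 5 each) (change -0.26 ± 0.20 SE, limma adjusted p = 0.397). Sdhb, the iron-sulfur subunit, had 11.57 ± 0.17 and 11.57 ± 0.26, and its adjusted p was 0.987. The membrane anchors had changes of opposite sign that did not pass: Sdhc changed by -0.18 ± 0.23 (limma adjusted p = 0.608) and Sdhd by 0.44 ± 0.19 (limma adjusted p = 0.132).

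For Sdhc, calorie restricted replicates 3 and 5, at 10.56 and 10.30, were the lowest of all 10 mice, and the change was 0.14 without them. Sdhaf1, which helps to insert iron-sulfur clusters into Sdhb, had the highest change of the complex, 0.68 ± 0.31 (limma adjusted p = 0.154). Its restricted mice gave 9.89, 9.64, 10.24, 9.80 and 11.50, with replicate 5 far above the others. Sdhaf2, which helps to attach the flavin to Sdha, changed by -0.06 ± 0.20.

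**Figure D4:**
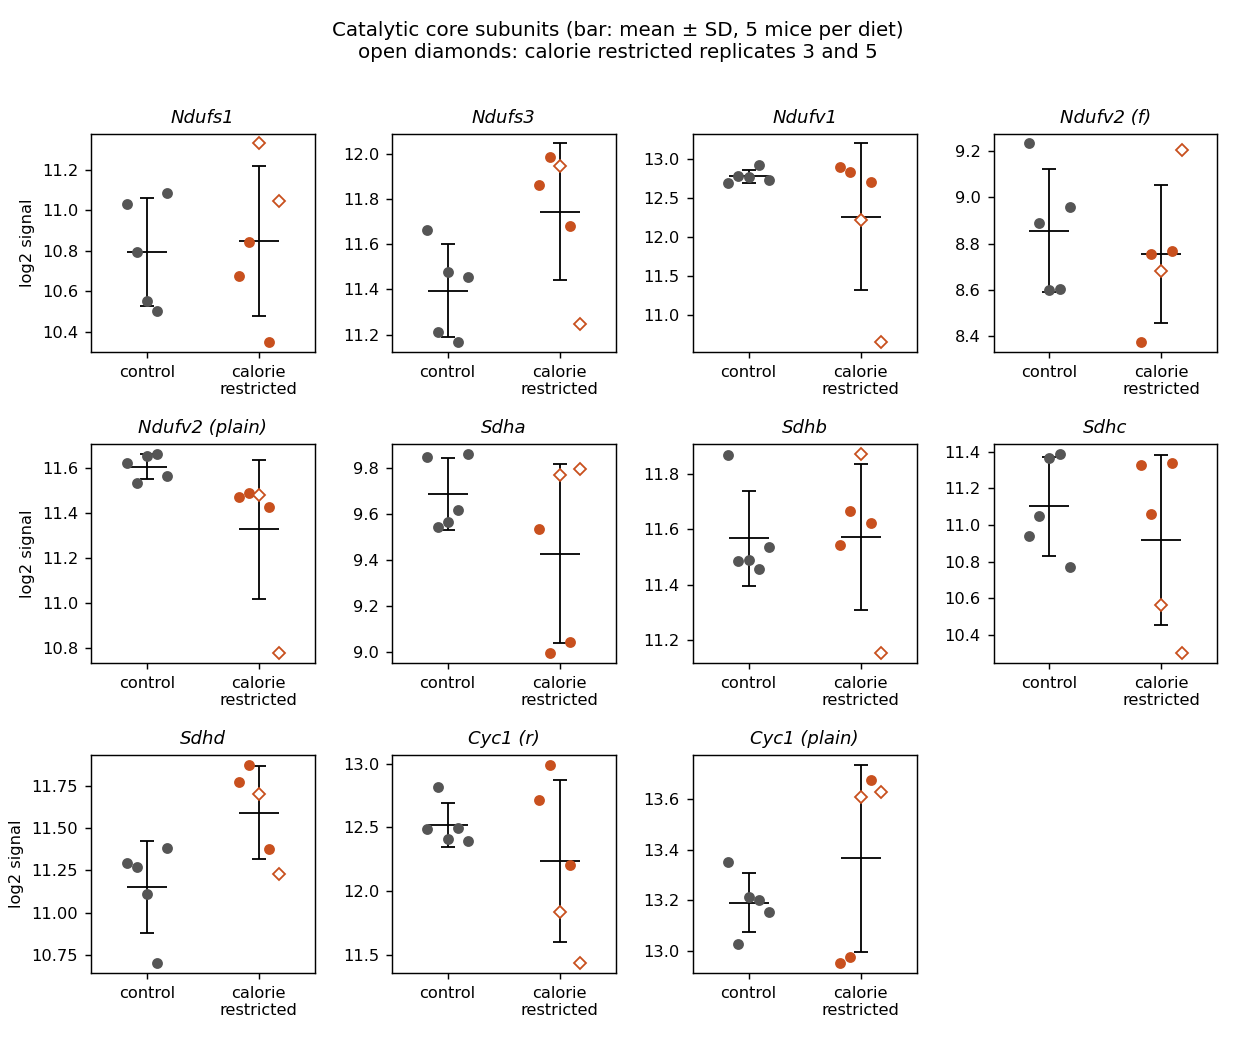
Log2 signal of each tested probe set of the catalytic core subunits of complexes I to III, 1 point per mouse with the mean and SD of 5 mice per diet; open diamonds are calorie restricted replicates 3 and 5, and letters in brackets are the identifier's suffix. None passed the test, and in Ndufv1 the open diamonds lie at 12.22 and 10.64, below all control mice.

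In complex III, Cyc1, the cytochrome that hands electrons to cytochrome c, had 2 tested probe sets with changes of opposite sign. One gave 13.35, 13.03, 13.21, 13.20 and 13.15 in control and 12.95, 12.98, 13.61, 13.67 and 13.63 in calorie restricted mice, a change of 0.18 ± 0.19 (limma adjusted p = 0.535). The other gave 12.49, 12.81, 12.41, 12.49 and 12.39 in control and 12.71, 12.99, 11.84, 12.20 and 11.44 in calorie restricted mice, a change of -0.28 ± 0.27 (limma adjusted p = 0.487). Calorie restricted replicates 3, 4 and 5 were above the control mice in the former and below them in the latter, while replicates 1 and 2 were below the control mice in the former and among them or above in the latter. These 3 mice had the 3 highest 3′ minus 5′ differences (5.20, 1.52 and 6.11), and the part of RNA quality in this split was not tested. Of the 4 genes with several tested probe sets (Ndufa3, Ndufb2, Ndufv2 and Cyc1), Cyc1 was the only one whose signs differed.

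Among the remaining subunits of complex III, Uqcr11 changed by 0.84 ± 0.31 and missed the threshold (limma adjusted p = 0.0921). It was high in calorie restricted replicates 1 to 4 (11.95, 12.31, 12.45 and 12.30) and low in replicate 5 (10.86). Without replicates 3 and 5 it passed, at 1.06 with an adjusted p of 0.0224. Uqcrb, a ubiquinone-side subunit, changed by 0.65 ± 0.39 (limma adjusted p = 0.269). Uqcrc1, core protein 1, changed by -0.10 ± 0.23 (limma adjusted p = 0.786), beside 1.27 for core protein 2, and its sign turned with centred arrays (0.11).

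**Figure D5:**
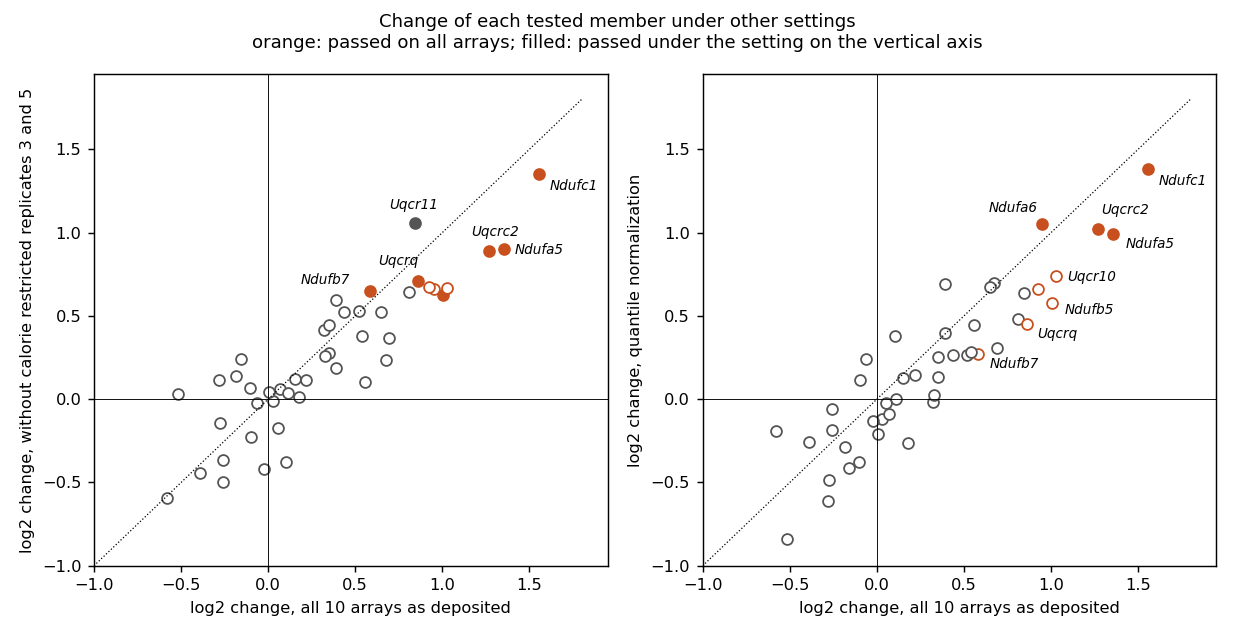
Log2 change of each of the 46 tested members on all arrays as deposited (horizontal) against its change under another setting named on each vertical axis; the dotted line marks equal values, orange points passed on all arrays and filled points passed under the other setting. The members higher numbered 9 on all arrays, 7 without calorie restricted replicates 3 and 5 and 4 under quantile normalization.

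Spread also differed between the diets. The SD was larger in calorie restricted mice in 34 of the 46 tested members, as in 5664 of all 7453 tested probe sets, and in 5 of the 9 that passed. Probe sets below the signal filter numbered 11, all of complex I, and left Ndufa1, Ndufa12 and Ndufc2 with no tested probe set. In a limma fit of all 12422 probe sets without the filter 0 of these 11 passed. Their changes ran from -1.76 for Ndufc2 (adjusted p = 0.0734) to 1.55 for one of Ndufaf4 (adjusted p = 0.275). A further 6 probe sets name several symbols, all beginning with Nduf, and were not members because the rule asks for exactly 1 symbol. Of these 3 passed as higher: the probe set of Ndufab1 and Ndufab1-ps (1.07), one of Ndufs6 and Ndufs6b (1.41) and that of Ndufs5 and Ndufs5-ps (1.03). The probe set of Ndufb4, Ndufb4b and Ndufb4c passed as lower (-1.36, limma adjusted p = 0.0115). Which gene of each set was measured cannot be told.

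The counts of the following lists stand beside 4.11% higher and 7.74% lower of all tested probe sets. For the rest of the chain, complex IV gave 4 higher and 1 lower of 13 tested probe sets. Its median change was 0.55, from -0.94 for Cox6b1 to 1.93 for Cox6a2. The ATP synthase gave 4 higher and 3 lower of 19, with a median of 0.41. Its extremes were -1.17 for one probe set of Atp5d and 1.5 for Atp5e. The members held 0 probe sets that were lower, but the lower probe set with the Ndufb4 symbols lies outside their rule. The difference from these lists was not tested. Electron carriers and assembly factors outside the symbol rule gave 1 higher (Uqcc2, an assembly factor of complex III, 0.79) and 2 lower of 21, with a median of -0.14 and the lowest change in Coq4 (-1.68). Mitochondrial transcription and biogenesis gave 0 of 11 in either direction, with a median of -0.12. It ran from one probe set of Polrmt at -0.78 to one of Esrra at 0.78. The other tested probe sets of these genes had the opposite sign, 0.21 for Polrmt and -0.12 for Esrra. Other mitochondrial proteins gave 1 higher (Lonp1, 0.88) and 1 lower (one probe set of Tomm70a, -1.34) of 20, with a median of -0.14. The other tested Tomm70a probe set was at 0.43 and did not pass.

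Some markers of cell types moved with the diets as well. Their counts stand beside 4.11% higher and 7.74% lower of all tested probe sets. Hippocampal neuron markers gave 0 higher and 3 lower of 6 tested probe sets, with a median change of -1.97. Summed signals here take in all probe sets of a list, tested or not. For the 8 neuron marker probe sets the sum ran from 26676.5 to 34396 in control and from 20145.7 to 27542.3 in calorie restricted mice. The neuron markers that were lower were Syt1, a calcium sensor of synaptic vesicles (-3.55), one probe set of the glutamate receptor gene Gria1 (-3.18) and Neurod6, a transcription factor of pyramidal neurons (-1.26). The second probe set of Gria1 (-0.97), Camk2a, a synaptic kinase (-2.69), and Snap25, a protein of vesicle fusion (0.47), did not pass. Oligodendrocyte markers gave 4 lower of 8 (summed signal 29955.2 to 36459.8 and 22536.2 to 32059.2). Astrocyte markers gave 2 of 6 (12141.7 to 18524 and 11132.7 to 19194.6) and microglia markers 1 of 7 (6637.09 to 10046.9 and 3115.78 to 8197). The oligodendrocyte calls were Cldn11 (-0.80) and Mobp probe sets at -1.70, -2.02 and -3.43. A further Mobp probe set (0.72), Mog (0.07) and Mbp (-0.12 and -0.84) did not pass. Both astrocyte calls were Aqp4 (-2.09 and -1.55), while Gfap (-1.30 and -0.32), Aldoc (0.40) and Slc1a2 (0.13) did not pass. The microglia call was Cx3cr1 (-1.10). Choroid plexus and ependyma markers gave 2 lower of 4, with summed signals of 3341.65 to 12192.8 and 996.254 to 15480.2. Endothelial, cerebellum, skeletal muscle and erythrocyte markers gave 0 lower, and 0 tested marker probe sets of any list were higher. The part of cell makeup in the members' changes was not tested.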

How the data were processed

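Hippocampal RNA of 10 mice was measured on Affymetrix arrays. The authors deposited 1 intensity per probe set and array on a linear scale, which per the submitters' processing notes come from MAS5 (version and settings not given in the sources used here). Intensities under 1 (41 of 124880 values) were set to 1 and log2 was taken. Probe sets other than the 66 controls with a mean at or above the 40th percentile (6.85) were tested, 7453 of 12422. Gene symbols came from the platform annotation (10833 probe sets with 1 symbol, 396 with several, 1193 with none), and all 57 members matched RefSeq.

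Diets were compared over all 10 arrays with limma 3.58.1 (lmFit and eBayes with a variance trend) in R 4.3.3, with Benjamini-Hochberg adjustment over the 7453 and a threshold of 0.05. The test is of the change against 0, not against the median change of -0.15. The members, lists and rules were chosen with earlier results of these data known, so no list was tested. Members named with values are those that passed, the core subunits, every other probe set of those that passed and the extremes of each complex; the others named were chosen after their values were seen. Alternatives changed the scaling, filter, offset, variance model, array weights, covariates, arrays and probe sets per gene. The fit was checked on simulated data. The labels call the arrays biological replicates, 1 mouse each; their number limits the precision. No position of a probe set is printed, since no label gives its build.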

Additional observations from a re-analysis of the deposited data

Results flagged for a closer look

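In 6 of the 92 groups formed by a tested member and a diet, 1 mouse stood far from the other 4 by Dixon's criterion, which chance meets in about 1 of 20 groups. In calorie restricted replicate 3, Ndufaf1 was at 9.33 (others 8.61 to 8.72) and Ndufa7 at 13.62 (others 12.64 to 12.92). In calorie restricted replicate 5, one Ndufv2 probe set was at 10.78 (others 11.42 to 11.49) and Uqcrc1 at 10.92 (others 11.92 to 12.26). In control mice, Sdhb was at 11.87 in replicate 1 (others 11.46 to 11.53), and one Cyc1 probe set was at 12.81 in replicate 2 (others 12.39 to 12.49).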

How the results depend on the processing

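The count of 9 members higher became 16 with each array centred on its median (575 higher and 266 lower over all tested probe sets, against 306 and 577 as deposited), 4 under quantile normalization (319 and 280), 2 with RNA quality as a covariate (155 and 178) and 0 with RNA quality and spike-in signal. Leaving out single arrays gave 3 to 12, without a count over all tested probe sets beside it. The members' median change of 0.33 became 0.54 with centred arrays, 0.19 under quantile normalization, 0.21 without calorie restricted replicates 3 and 5, 0.021 with both covariates and 0.23 to 0.35 without single arrays. Relative to all tested probe sets, the median of 0.48 became 0.21 under quantile normalization, 0.17 with both covariates and 0.39 to 0.50 without single arrays. No member was lower in any setting by the limma adjusted p. No filter, another offset and no variance trend each kept all 9. Over all tested probe sets, 12422 without the filter, these fits gave 259, 324 and 274 higher and 531, 645 and 592 lower. The cause of these shifts was not tested.

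Same-numbered mice of the 2 diets deviated from their diet means with correlations of -0.08, 0.05, -0.06, 0.02 and 0.17. Those of different-numbered mice are not set beside them, so whether the numbers pair the mice is not settled. With the replicate number as a block 8 members were higher, Ndufb7 being lost. Over all tested probe sets that fit gave 195 higher and 345 lower, against 306 and 577 as deposited.

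Over all 46 tested members the sign turned in 9 under quantile normalization, 6 with centred arrays, 8 without calorie restricted replicates 3 and 5 and 10 with RNA quality. Among the other members, Uqcrc1 was at 0.11 with centred arrays, 0.065 without those mice and 0.21 with RNA quality. In the same order Ndufb8 was at 0.058, 0.24 and 0.44. Ndufaf4 was at -0.38 without those mice and -0.57 with RNA quality, Ndufa2 at -0.11 with RNA quality, and Sdhaf2 at 0.15 with centred arrays and 0.24 under quantile normalization. For core subunits and members that passed, signs turned as follows. With centred arrays, one Ndufv2 probe set was at 0.12 and Sdhc at 0.032. Under quantile normalization, that Ndufv2 probe set was at 0.11, Ndufs1 at -0.026, Sdhb at -0.21 and one Cyc1 probe set at -0.26. With array weights, Ndufs1 was at -0.11 and Sdhc at 0.059. With RNA quality, Ndufs1 was at -0.26, Ndufv1 at 0.35, Sdhc at 0.31 and the Cyc1 probe sets at 0.33 and -0.093. With both covariates, Ndufs1 was at -1.02, Ndufv1 at 0.48, one Ndufv2 probe set at 0.033, Sdhb at -0.15, Sdhc at 0.93, Sdhd at -0.12 and Uqcrh at -0.16. Without calorie restricted replicates 3 and 5, Ndufs1 was at -0.17, Ndufv1 at 0.032, Sdhc at 0.14 and one Cyc1 probe set at 0.12. With probe sets averaged per gene, Cyc1 was at -0.052. Without single arrays, Ndufs1 ran from -0.065 to 0.18 and Sdhb from -0.070 to 0.11.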
